A study of Mus musculus with 6 samples.

Results

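The enzymes that build cholesterol and fatty acids, together with their regulators, were examined as a group of 31 genes out of the 32285 genes counted in tdTomato+ cells of mouse dorsal skin. The members were the rows whose symbol is on a fixed list, with no cutoff on a measured value, and all 31 were found. The list was drawn up with earlier results of these data known. They comprise 7 enzymes of the mevalonate steps, 11 of the squalene and sterol steps, the regulators *Srebf1*, *Srebf2* and *Insig1*, the sterol carrier *Stard4*, and 9 enzymes of fatty acid synthesis and desaturation. Single-cell RNA sequencing (scRNA-seq), in which every captured transcript receives a molecular tag (UMI) so that copies are counted once, was done on cells sorted for tdTomato after tamoxifen (200 µg/g) at postnatal day 17 in mice with *Cdh5*-CreERT2, a Cre driven by the VE-cadherin promoter.

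There were 6 libraries, 2 per group, labelled as replicates S1 and S2 and made from different mice per the methods of the study. The wild type (WT) telogen group, with resting hair follicles, was collected at postnatal day 20, and the WT anagen group, with growing follicles, at postnatal day 32. Both carried tdTomato, *Cdh5*-CreERT2 and *Krt14*-H2BGFP on a C57BL/6;CD1 background. The Alk1 KO group was labelled telogen, carried Alk1 flox/flox with tdTomato and *Cdh5*-CreERT2 on C57BL/6, and was collected at postnatal day 25. Its title and description give this genotype, whereas the genotype tag of both libraries reads wild type, and the title was followed here. Alk1 KO and WT telogen therefore also differed in age, days after tamoxifen, strain label and the *Krt14*-H2BGFP transgene, and these cannot be told apart from the genotype. The sorted cells held other lineages beside endothelial cells (ECs), and recombination at Alk1 was not measured cell by cell here.

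Cholesterol is made from acetyl-CoA through mevalonate and isoprenoid units to squalene, which is closed into lanosterol and trimmed stepwise to cholesterol. Srebp2, the product of *Srebf2*, is released from the endoplasmic reticulum when sterols are scarce and raises transcription of these enzymes, whereas Insig1 holds it back. Srebp1, the product of *Srebf1*, acts mainly on fatty acid synthesis and is itself raised by liver X receptors (LXRs) when sterols are abundant. Skin makes much of its own sterol and fatty acid, and nerve sheaths and growing membranes also draw on these pathways.

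The 4 promoter sequences that follow were chosen because they belong to *Idi1*, *Cyp51* and *Ebp*, which were lower in Alk1 KO in 3 or 4 of the populations compared, and to *Hmgcs1*, the first committed enzyme of the mevalonate steps. Each is the 250 bases before the gene start, taken from RefSeq on GRCm38.p6 and written 5′ to 3′ on the strand of the gene. Capitals mark 3 motifs on either strand. They are CCAAT for the factor NF-Y and, as the GC box of Sp1, GGGCGG. The last is a core of the sterol response element, TCACNCCAC.
*Idi1*, chr13:8885356-8885605, plus strand: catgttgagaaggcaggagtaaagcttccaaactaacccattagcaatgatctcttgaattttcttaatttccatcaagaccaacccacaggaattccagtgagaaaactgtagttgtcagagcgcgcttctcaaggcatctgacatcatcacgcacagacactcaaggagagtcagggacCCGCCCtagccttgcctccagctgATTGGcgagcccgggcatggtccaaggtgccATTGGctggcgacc
*Cyp51*, chr5:4104698-4104947, minus strand: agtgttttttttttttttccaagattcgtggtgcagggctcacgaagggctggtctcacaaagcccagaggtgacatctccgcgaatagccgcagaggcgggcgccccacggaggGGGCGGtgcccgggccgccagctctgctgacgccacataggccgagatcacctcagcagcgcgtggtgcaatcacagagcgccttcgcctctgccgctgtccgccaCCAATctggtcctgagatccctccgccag
*Ebp*, chrX:8193513-8193762, minus strand: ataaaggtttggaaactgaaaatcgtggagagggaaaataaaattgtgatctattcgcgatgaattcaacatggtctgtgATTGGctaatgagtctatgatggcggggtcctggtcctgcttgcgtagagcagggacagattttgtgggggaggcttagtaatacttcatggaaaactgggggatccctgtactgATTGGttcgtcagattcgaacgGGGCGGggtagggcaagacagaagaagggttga
*Hmgcs1*, chr13:119690101-119690350, plus strand: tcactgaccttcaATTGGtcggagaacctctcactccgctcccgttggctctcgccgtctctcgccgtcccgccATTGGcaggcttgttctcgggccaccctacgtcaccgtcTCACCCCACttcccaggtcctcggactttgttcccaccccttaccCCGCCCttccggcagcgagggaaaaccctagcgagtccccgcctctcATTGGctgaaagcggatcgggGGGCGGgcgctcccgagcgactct
In these windows *Idi1* held 2 CCAAT and 1 GGGCGG, *Cyp51* held 1 of each, *Ebp* held 2 CCAAT and 1 GGGCGG, and *Hmgcs1* held 3 CCAAT and 2 GGGCGG beside 1 match to the sterol response core. No marked stretch overlapped another.

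Over the 24 members with a promoter in the RefSeq table, CCAAT or its complement was found in 19 (79.2%), against 37.5% of 27025 genes. GGGCGG was found in 19 (79.2%), against 35.4% of genes. In the cholesterol steps 14 of 15 promoters held each of these, and in the fatty acid steps 2 of 6. TCACNCCAC was found in 1 member (*Hmgcs1*), against 1.22% of genes. These matches describe letters in a window and not binding. *Sqle*, *Fdps*, *Fdft1*, *Stard4*, *Scd1*, *Scd2* and *Fads1* were not matched.

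The total depth of the libraries ranged from 10615358 to 43317677 UMIs, and both Alk1 KO libraries were the shallowest. Cells with 200 to 5000 genes and under 10% mitochondrial UMIs were kept, 20941 in all and 1713 to 5106 per library, and pairs of libraries shared at most 13 barcodes. Kept cells were clustered and named from marker genes, as blood EC-like, lymphatic EC-like, perineurial-like (the *Krt19*+ cells of the nerve sheath) and immune-like cells, with a finer breakdown. UMIs were then summed per library and population, and a level is given as CPM, the UMIs of a gene divided by all UMIs of that library and population and scaled to ppm. These are counts of mRNA 3′ ends and do not grow with transcript length. *Xist*, which is transcribed from the inactive X of females, read 946 CPM in blood EC-like cells of telogen S1 and 756 and 693 in Alk1 KO, but 0 in telogen S2, 0 in anagen S1 and 0.0550 in anagen S2. The sexes of the libraries thus differed within the telogen group, and the Alk1 KO counts of members are also given against telogen S1 alone, in a fit that takes the lone library to vary like the others. In comparisons of groups the p-values rest on the spread between the mice of a group, which in telogen includes this difference in *Xist*. Where the library was a block, they rest on how the difference between populations varied from library to library.

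Among the main populations, perineurial-like cells had the highest levels of both pathways in the 4 WT libraries. The 18 genes of the cholesterol steps summed to 734 ± 188 CPM (SD, n = 4) in perineurial-like cells, 345 ± 75.7 in immune-like cells, 292 ± 47.2 in lymphatic EC-like cells and 260 ± 28.6 in blood EC-like cells. The 9 genes of the fatty acid steps summed to 882 ± 147 in perineurial-like cells and to 215 ± 20.9, 194 ± 20.3 and 183 ± 26.2 in blood EC-like, lymphatic EC-like and immune-like cells. Immune-like, lymphatic EC-like and blood EC-like cells thus lay within about 1 SD of their neighbours in each order. Of the smaller populations, fibroblast-like cells reached 603 ± 248 for the cholesterol steps and 368 ± 99.6 for the fatty acid steps. Schwann-like cells read 1505 ± 478 and 988 ± 116, from few cells. Their cluster also passed 10 markers of the perineurial list, and *Krt19* read 188, 241, 171 and 0 CPM in its WT libraries. When clusters were made without correction between libraries, no cells were named Schwann-like. What perineurial RNA added to these sums was not tested. Within the blood EC-like cells the cholesterol sum was 341 ± 57.0 in artery-like cells, above 224 ± 31.6 in vein-like and 223 ± 14.2 in capillary-like cells.

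**Figure D1:**
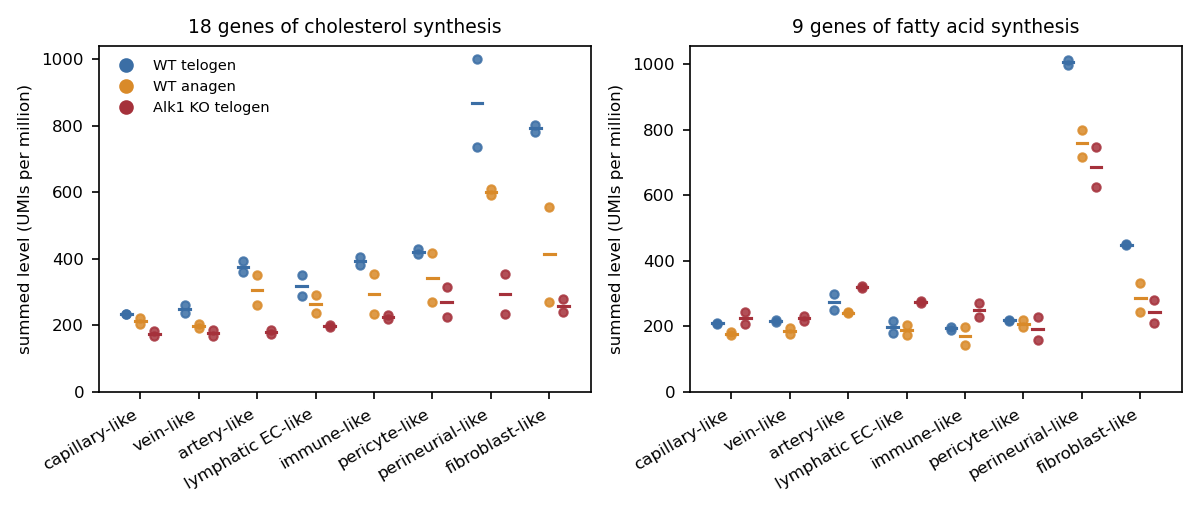
Summed level (CPM, vertical axis) of the 18 genes of cholesterol synthesis (left) and the 9 genes of fatty acid synthesis (right) in 8 populations, with 1 point per library, coloured by group, and a bar at the mean of the 2 libraries. Perineurial-like cells are highest in WT on the right panel, and the Alk1 KO points lie below both WT telogen points in every population of the left panel.

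Perineurial-like cells against blood EC-like cells of the same 4 WT libraries showed 25 of 30 members tested higher and 1 lower, where 33.1% of all 11612 genes tested were called higher and 31.7% lower (edgeR quasi-likelihood test with the library as a block, adjusted p under 0.05 and over 1.3-fold). The median log2 difference of the members was 1.23, against 0.02 over all genes. All 17 tested genes of the cholesterol steps had a positive difference and 15 were called, and 8 of 9 genes of the fatty acid steps were called higher. The perineurial markers on the list summed to 6763 to 8363 CPM in these cells and to 130 to 156 in blood EC-like cells. Markers of fibroblasts were also high in them, at 9059 to 12061, and all 8 were detected in each WT library, so the label rests on *Krt19* and the other perineurial genes and not on absence of fibroblast genes.

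*Scd1*, which introduces the double bond that makes oleate from stearate, differed most. In perineurial-like cells *Scd1* read 313 and 293 CPM in telogen and 225 and 222 in anagen, against 8.88, 8.45, 10.7 and 10.7 in blood EC-like cells. Every perineurial value lay above every blood EC value, and the fitted difference was 4.53 ± 0.16 (SE) on the log2 scale, or 23-fold (adjusted p = 5.54e-09). Its neighbour on chromosome 19, the paralog *Scd2*, read 408, 423, 275 and 363 in perineurial-like cells and 5.05-fold less in blood EC-like cells (log2 2.34 ± 0.10, adjusted p = 2.09e-08). *Scd1* lies at chr19:44394450-44407709 and *Scd2* at chr19:44293676-44306864 (GRCm38.p6), and reads that fit both paralogs would have been set aside by the counting. *Fasn*, the synthase that assembles palmitate, read 26.6 to 39.7 in perineurial-like cells and was 7.43-fold higher than in blood EC-like cells (log2 2.89 ± 0.19). *Fads2*, the delta-6 desaturase of polyunsaturated fatty acids, was 3.75-fold higher (log2 1.91 ± 0.10).

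Of the cholesterol steps, *Sqle*, the squalene epoxidase, read 37.0, 50.4, 27.7 and 29.2 CPM in perineurial-like cells, against 2.59 to 7.05 in blood EC-like cells. *Hmgcs1*, which makes HMG-CoA, read 169, 210, 153 and 131, against 24.8 to 42.6. Both sets of libraries were apart, with differences of 2.78 ± 0.17 and 2.16 ± 0.12 on the log2 scale. *Msmo1*, a C4 methyl oxidase of the sterol steps, was 4.11-fold higher, and *Srebf2* 2.86-fold (log2 1.51 ± 0.10). *Acly*, which splits citrate into cytosolic acetyl-CoA, was the exception. It read 26.5, 21.7, 18.3 and 19.1 in perineurial-like cells and 38.0 to 46.3 in blood EC-like cells, 2.20-fold lower (log2 -1.14 ± 0.12, adjusted p = 1.05e-05). The smallest differences among the members not called were those of *Ebp* (0.09 ± 0.11), *Insig1* (0.17 ± 0.12) and *Stard4* (0.19 ± 0.09). Fibroblast-like cells were similar in count, with 24 of 30 members higher and 2 lower (28.3% and 27.9% of all genes), and *Sqle* was 10.5-fold higher there than in blood EC-like cells. Pericyte-like cells had 9 of 28 members higher and 3 lower (16.3% and 14.9% of genes), and proliferating EC-like cells 6 of 27 higher and 0 lower (15.7% and 15.2%).

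**Figure D2:**
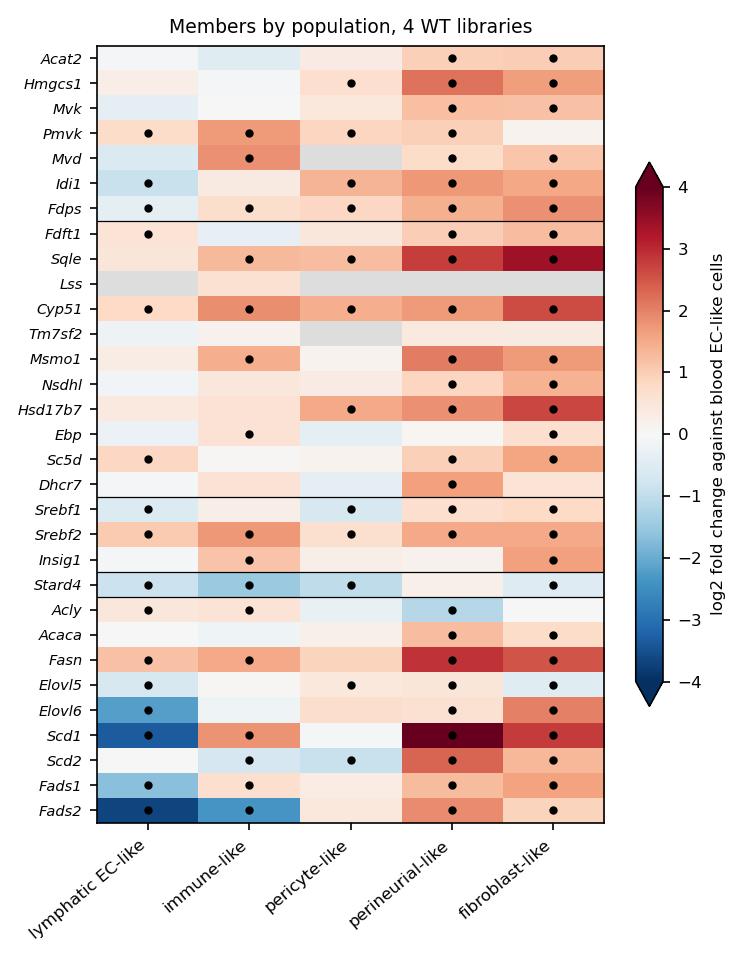
Fitted log2 difference of each member (rows, by role) from blood EC-like cells in 5 populations (columns) of the 4 WT libraries, in red where higher and blue where lower. Dots mark calls and grey marks members that were not tested; the perineurial-like and fibroblast-like columns are almost entirely red, while the lymphatic EC-like column holds the deepest blues, at *Fads2* and *Scd1*.

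Lymphatic EC-like cells differed from blood EC-like cells in both directions, with 7 of 30 members higher and 9 lower, against 24.1% and 23.7% of all 11223 genes tested. The members' median of -0.05 was close to that of all genes (-0.01). Of the 9 fatty acid genes, 5 were lower (*Scd1*, *Fads1*, *Fads2*, *Elovl5* and *Elovl6*) and 2 higher, while *Scd2*, the best counted desaturase, differed by 0.00 ± 0.10. *Fads2* read 0.358, 0.774, 0.964 and 1.69 CPM in lymphatic EC-like cells, against 10.2 to 13.8 in blood EC-like cells, 12.7-fold lower (log2 -3.67 ± 0.30). *Scd1* read 0.423 to 1.45 and was 10.0-fold lower (log2 -3.33 ± 0.30). *Elovl6*, which lengthens palmitate to stearate, and *Fads1*, the delta-5 desaturase, were 4.65-fold and 3.18-fold lower. No library of either population overlapped for these 4 genes. *Stard4* was also lower (log2 -0.87 ± 0.12), although its libraries overlapped. In the other direction *Srebf2* read 47.0, 44.1, 45.5 and 42.7, against 18.6 to 23.0, 2.06-fold higher (log2 1.04 ± 0.11, adjusted p = 3.68e-06). *Fasn*, *Sc5d*, *Cyp51* and *Pmvk* were higher by 0.74 to 1.17 on the log2 scale, with libraries apart. Of the blood EC-like cells, the high *Fads2* and *Scd1* lay in artery-like cells, where *Fads2* read 29.5 to 39.6 and *Scd1* 17.3, 22.1, 26.2 and 23.4.

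In immune-like cells 13 of 31 members were higher than in blood EC-like cells and 3 lower, against 30.2% and 31.8% of all 12466 genes tested. The higher ones were led by *Cyp51*, the lanosterol demethylase, with 27.9, 25.7, 15.3 and 17.3 CPM against 6.11 to 8.70 (log2 1.87 ± 0.15). *Mvd*, *Scd1*, *Pmvk* and *Srebf2* were higher by 1.72 to 1.82. *Msmo1* was higher by 1.46 ± 0.16. Lower were *Fads2* (-2.35 ± 0.29), *Stard4* (-1.49 ± 0.17) and *Scd2* (-0.67 ± 0.21). The makeup of this population varied by library, since mast cell markers summed to 666 to 11992 CPM in the WT libraries.

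The question of the Alk1 KO libraries is which genes change when this BMP and TGF-β family receptor is removed from VE-cadherin lineages. *Acvrl1*, the gene of Alk1, read 210 and 183 CPM in blood EC-like cells of WT telogen and 163 and 153 in Alk1 KO (log2 -0.37 ± 0.14, adjusted p = 0.0651). It was lower in capillary-like cells, with 187 and 154 against 111 and 99.9 (-0.80 ± 0.17, adjusted p = 0.00461). It was also lower in fibroblast-like (-1.30 ± 0.35, adjusted p = 0.0193) and pericyte-like cells (-1.85 ± 0.45, adjusted p = 0.0497), and in macrophage-like cells, where Alk1 KO held 0 and 1 UMI (adjusted p = 0.0393). In pericyte-like cells the endothelial genes *Cdh5* (504 and 392 CPM against 15.5 and 172) and *Pecam1* (515 and 369 against 93.2 and 264) were lower too. What part endothelial RNA had in the pericyte-like value was not tested. *Acvrl1* was not called in artery-like (-0.09 ± 0.16), vein-like (-0.17 ± 0.18), lymphatic EC-like (-0.22 ± 0.20), perineurial-like (-0.95 ± 0.80) or immune-like cells (-1.28 ± 0.39). The part of the gene that is flanked by loxP sites is not given in the sources used here. Whether its removal lowers the 3′ counts of the gene was not tested.

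In blood EC-like cells of Alk1 KO, 11 of 30 members were lower than in WT telogen and 1 was higher, while 17.8% of all 11273 genes tested were called lower and 15.2% higher. The 11 were *Mvk*, *Pmvk*, *Idi1*, *Fdps*, *Sqle*, *Cyp51*, *Nsdhl* and *Ebp* of the cholesterol steps, *Stard4*, and the desaturases *Fads1* and *Fads2*. *Fdps* and *Ebp* kept the call under all 16 alternatives tried, but *Nsdhl* under 7 and *Stard4* under 5, and the last pair lost it with DESeq2 and when either telogen library was left out. The median over the 17 tested genes of the cholesterol steps was -0.55 on the log2 scale, that of the 9 fatty acid genes -0.01 and that of all genes 0.02. Against telogen S1 alone, 7 were lower and 1 higher (11.3% and 8.33% of genes). Markers of fibroblasts, which have high levels of these genes, summed to 86.5 and 120 CPM in WT telogen blood EC-like cells and to 19.7 and 19.5 in Alk1 KO, and those of macrophages to 42.8 and 97.0 against 3.57 and 5.79. Their part in the result was not tested.

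*Fdps*, which joins isoprenoid units into farnesyl diphosphate, read 37.8 and 30.7 CPM in WT telogen and 11.4 and 15.8 in Alk1 KO, 2.63-fold lower (log2 -1.40 ± 0.21, adjusted p = 0.00116). *Cyp51* read 8.42 and 8.70 against 1.66 and 2.37 (-2.13 ± 0.37, adjusted p = 0.00245), and *Pmvk*, the phosphomevalonate kinase, read 25.3 and 25.6 against 14.3 and 10.3 (-1.09 ± 0.22, adjusted p = 0.00476). *Ebp*, the sterol isomerase, read 69.0 and 65.5 against 45.0 and 30.6 (-0.88 ± 0.19, adjusted p = 0.00707). All 4 genes were lower in both Alk1 KO libraries than in all 4 WT libraries. *Fads1* read 13.9 and 13.1 in telogen and 4.99 and 6.59 in Alk1 KO (-1.28 ± 0.28), but its anagen values of 7.49 and 7.09 were also low. *Sqle* read 7.05 and 5.89 against 1.90 and 2.63 (-1.57 ± 0.39), with anagen S1 at 2.59, between the Alk1 KO libraries. *Hmgcs1*, at 42.6 and 39.2 against 27.8 and 38.2, was not called (-0.37 ± 0.18, adjusted p = 0.133). The regulators *Srebf2* (-0.26 ± 0.21), *Insig1* (0.54 ± 0.23) and *Srebf1* (0.54 ± 0.19, adjusted p = 0.0575) were not called either. *Srebf1* read 15.2 and 19.5 in telogen and 25.0 and 27.1 in Alk1 KO, above every WT library.

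*Scd1* was the 1 member that rose, from 8.88 and 8.45 CPM to 20.5 and 27.1, 2.62-fold (1.39 ± 0.23, adjusted p = 0.00176). It rose in artery-like cells, from 17.3 and 22.1 to 63.4 and 72.2 (1.79 ± 0.25, adjusted p = 0.000270), while vein-like cells read 2.46 and 2.65 against 2.24 and 2.31. Artery-like cells held 2 clusters. The first was led by *Fez1* and *Pi16*, of which *Pi16* is on the fibroblast list, and had no artery marker among its 10 leading genes. There *Scd1* read 18.3 and 28.7 in telogen and 95.4 and 138 in Alk1 KO. In the other, led by *Gkn3*, *Mgp* and *Gja5*, it read 16.0 and 16.5 against 42.0 and 33.9, so both clusters were higher in both Alk1 KO libraries. Without the first cluster *Scd1* was not called in blood EC-like cells (0.85, adjusted p = 0.0559), and 7 members were lower and 0 higher. The next largest positive differences were those of *Acat2* (0.62 ± 0.30, adjusted p = 0.138), *Srebf1* and *Insig1*.

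In artery-like cells 8 of 22 members were lower and 1 higher (10.5% and 8.32% of genes), with 7 of 11 tested cholesterol genes lower and a median of -1.23. With telogen S1 as the sole control, 5 were lower and 1 higher (5.62% and 4.21%). *Cyp51* fell 8.52-fold there, from 15.8 and 21.3 CPM to 2.60 and 1.59, and *Idi1*, the isomerase of isoprenoid units, 3.23-fold, from 38.2 and 40.1 to 12.2 and 11.9. Capillary-like cells had 6 of 23 members lower and 1 higher (18% and 14.8% of genes), of which *Elovl6*, *Elovl5* and *Fads1* belong to the fatty acid steps, and *Scd2* was 1.99-fold higher. With telogen S1 as the sole control, 3 were lower (*Fdps*, *Fads1* and *Ebp*) and 1 higher (11.8% and 9.19%). Vein-like cells had 2 of 19 lower and 1 higher (11.8% and 10.1%). *Insig1* was the higher one, at 12.3 and 12.4 against 22.4 and 44.0. Against telogen S1 alone, 1 was lower (*Ebp*) and 0 higher in vein-like cells (edgeR, 7.24% and 5.77%), with *Insig1* at an adjusted p of 0.0571. Whether these subsets differed from each other in response was not tested.

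The split into artery-like, vein-like and capillary-like cells rests on the Harmony correction between libraries. Without it most blood EC-like cells of Alk1 KO lay in clusters nearly without WT cells. One capillary-like cluster held 484 and 524 Alk1 KO cells and 1 or 2 of each WT library, and one artery-like cluster held 108 and 162 and at most 1. The vein-like cells of Alk1 KO then numbered 36 and 26, against 158 and 131 with the correction. With those clusters 7 of 22 members were lower and 2 higher in artery-like cells (9.59% and 7.79% of genes), 5 of 23 and 1 in capillary-like (16.3% and 13.8%), and 1 of 11 and 0 in vein-like cells (10% and 9.2%). The counts over all blood EC-like cells were 11 and 1 either way.

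**Figure D3:**
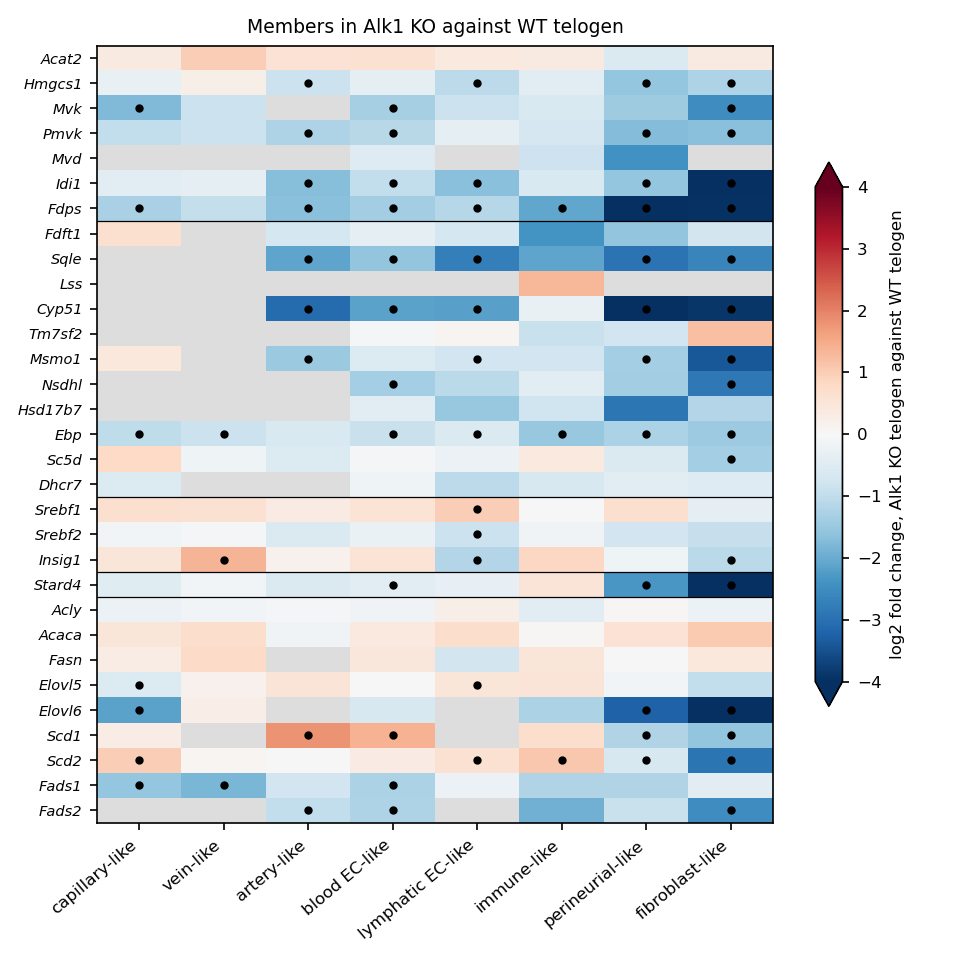
Fitted log2 fold change of each member (rows, by role) in Alk1 KO against WT telogen in 8 populations (columns), clipped at 4 in either direction, with dots on calls and grey where a member was not tested. Of the tested cholesterol genes, blue calls take 11 of 16 in the fibroblast-like, 7 of 11 in the artery-like, 8 of 17 in the blood EC-like and perineurial-like, and 7 of 16 in the lymphatic EC-like column, and the red calls are few, at *Scd1*, *Scd2*, *Srebf1*, *Elovl5* and *Insig1*.

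Lymphatic EC-like cells of Alk1 KO had 9 of 26 members lower and 3 higher, where 13.2% of all 10985 genes tested were called lower and 11.9% higher. Lower were *Hmgcs1*, *Idi1*, *Fdps*, *Sqle*, *Cyp51*, *Msmo1* and *Ebp* of the cholesterol steps and the regulators *Srebf2* and *Insig1*. The median of the 16 tested cholesterol genes was -0.95, against 0.03 over all genes. *Hmgcs1* read 53.4 and 44.1 CPM in telogen and 22.9 and 26.1 in Alk1 KO, 2.07-fold lower (-1.05 ± 0.17, adjusted p = 0.00203). *Sqle* read 8.96 and 8.90 against 1.36 and 1.40, 6.59-fold lower (-2.72 ± 0.42, adjusted p = 0.00142), and *Cyp51* read 18.6 and 12.0 against 2.45 and 4.42 (-2.19 ± 0.39). *Idi1* fell from 15.8 and 9.68 to 3.54 and 4.65 (-1.68 ± 0.37). These 4 enzymes were lower in both Alk1 KO libraries than in every WT library.

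Of the regulators in lymphatic EC-like cells, *Srebf2* and *Insig1* were lower and *Srebf1* higher. *Srebf2* fell from 47.0 and 44.1 CPM to 20.4 and 31.9 (-0.85 ± 0.21, adjusted p = 0.0147), and *Insig1* from 29.4 and 16.3 to 9.53 and 11.6 (-1.17 ± 0.31, adjusted p = 0.0199). *Srebf1* rose from 14.3 and 10.5 to 25.6 and 25.6 (0.98 ± 0.23, adjusted p = 0.0126). The call of *Insig1* ended without telogen S1 (-0.67), and that of *Srebf1* with DESeq2 and against telogen S1 alone (0.76). For each, both Alk1 KO libraries lay outside the range of the 4 WT libraries. *Scd2* rose from 78.1 and 59.6 to 102 and 119 (0.62 ± 0.16), and *Elovl5*, an elongase of polyunsaturated fatty acids, from 38.7 and 46.1 to 64.6 and 59.1 (0.49 ± 0.15). *Acaca*, the acetyl-CoA carboxylase, read 8.60 and 8.90 against 15.3 and 14.7 but was not called (0.71 ± 0.26, adjusted p = 0.0751). Against telogen S1 alone 9 members were lower and 1 higher (9.47% and 8.42% of genes). Without telogen S1, 4 were lower and 3 higher, and telogen S1 had the higher level of *Fdps*, *Insig1* and *Msmo1* of the pair. Fibroblast markers summed to 45.2 and 64.3 CPM in WT telogen and to 19.3 and 11.4 in Alk1 KO, and macrophage markers to 77.4 and 145 against 18.2 and 15.8. The makeup of the lymphatic EC-like cells also differed. The cluster led by *Lyve1* and *Ccl21a* held 188 and 180 cells in WT telogen and 432 and 531 in Alk1 KO, and that led by *Fibin* and *Slc29a4* held 297 and 356 against 236 and 285. Capillary markers summed to 433 and 498 CPM against 1381 and 1365, and vein markers to 759 and 938 against 1654 and 1373. What these added was not tested. Without the Harmony correction a lymphatic EC-like cluster held 669 and 808 Alk1 KO cells and at most 2 of a WT library, and the counts of members were again 9 lower and 3 higher.

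In perineurial-like cells of Alk1 KO 12 of 30 members were lower and 0 were higher than in WT telogen (edgeR, with 16 members at an unadjusted p under 0.05), against 11.3% and 9.94% of all 10335 genes tested. Of those genes, 3590 had an unadjusted p under 0.05. The median was -1.24 over the members and -1.55 over the 17 tested cholesterol genes, against -0.06 over all genes. The Alk1 KO libraries held only 81 and 55 of these cells, with 316569 and 180960 UMIs, so that 1 UMI stood for 3.16 and 5.53 CPM. The best counted members were the desaturases. *Scd1* read 313 and 293 in telogen and 133 and 149 in Alk1 KO, 2.31-fold lower (-1.21 ± 0.21, adjusted p = 0.00175). *Scd2* read 408 and 423 against 265 and 304 (-0.65 ± 0.20, adjusted p = 0.0379), with anagen S1 at 275, between the Alk1 KO values.

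*Fdps* fell from 103 and 153 CPM to 0 and 16.6, which is 3 UMIs against 1170, a ratio of 21.8 with a 95% counting interval of 7.44 to 106 (adjusted p = 0.000402). *Cyp51* read 29.6 and 43.0 in telogen and had 0 UMIs in both Alk1 KO libraries, at least 6.16-fold lower when 3 UMIs over the group are taken as the floor (adjusted p = 0.00327). *Sqle* held 3 UMIs in Alk1 KO against 397, a ratio of 7.39 (2.51 to 36.0), and *Elovl6* 1 UMI against 162, a ratio of 9.05 (1.60 to 360). These intervals cover counting error only. *Stard4*, which carries cholesterol between membranes, read 54.0 and 59.8 against 15.8 and 5.53 (-2.32 ± 0.46, adjusted p = 0.00336). The Alk1 KO libraries were far apart for *Hmgcs1*, at 19.0 and 149 against 169 and 210 in telogen (-1.55 ± 0.45), and without KO S1 it was not called. *Srebf2* read 63.2 and 5.53 against 66.1 and 67.8 (-0.77 ± 0.44, adjusted p = 0.237). *Fasn*, at 38.6 and 39.7 against 41.1 and 44.2, differed by 0.02 ± 0.32, and *Acly* by 0.04 ± 0.43. The largest positive differences were those of *Srebf1* (30.1 and 35.3 against 56.9 and 49.7, 0.64 ± 0.33) and *Acaca* (0.59 ± 0.39), neither called. Against telogen S1 alone 16 members could be tested, and 5 were lower and 0 higher (8.75% and 6.01% of genes). Those 5 were *Hmgcs1*, *Idi1*, *Fdps*, *Stard4* and *Scd1*. Perineurial markers summed to 6763 and 7016 in WT telogen and to 5386 and 5410 in Alk1 KO, and *Krt19* among them read 623 and 554 against 111 and 193. Fibroblast markers summed to 9059 and 9363 against 7325 and 6991, Schwann markers to 64.3 and 62.4 against 28.4 and 16.6, and macrophage markers to 40.6 and 77.9 against 6.32 and 5.53. Their part in the result was not tested.

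Immune-like cells of Alk1 KO had 2 of 31 members lower and 1 higher, against 4.33% and 2.2% of all 11813 genes tested. *Fdps* fell from 55.5 and 52.6 CPM to 9.37 and 15.5 (-2.09 ± 0.28, adjusted p = 0.0363), and *Ebp* from 93.4 and 88.2 to 28.1 and 36.3 (-1.53 ± 0.22, adjusted p = 0.0378). *Scd2* rose from 28.4 and 24.3 to 56.2 and 60.3 (1.08 ± 0.20, adjusted p = 0.0468). The libraries of Alk1 KO and WT did not overlap for these 3. *Sqle*, at 12.7 and 9.66 against 1.87 and 3.09, was not called (-2.09 ± 0.49, adjusted p = 0.0647), and neither were *Fdft1* (-2.40 ± 1.0), *Lss* (1.33 ± 0.82) or *Insig1* (0.82 ± 0.24). These calls needed both telogen libraries, and against telogen S1 alone the same held for the calls of all other genes. The median over the 24 members tested in that fit was -0.35. The Alk1 KO libraries held 67 and 133 immune-like cells, and mast cell markers summed to 13495 and 247 in them against 1370 and 1666 in WT telogen. Within macrophage-like cells *Ebp* was lower (84.1 and 87.3 against 25.2 and 37.0) and *Fdps* had 0 UMIs in Alk1 KO, at least 4.81-fold lower against the same floor, where 5.85% of genes were called lower.

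**Figure D4:**
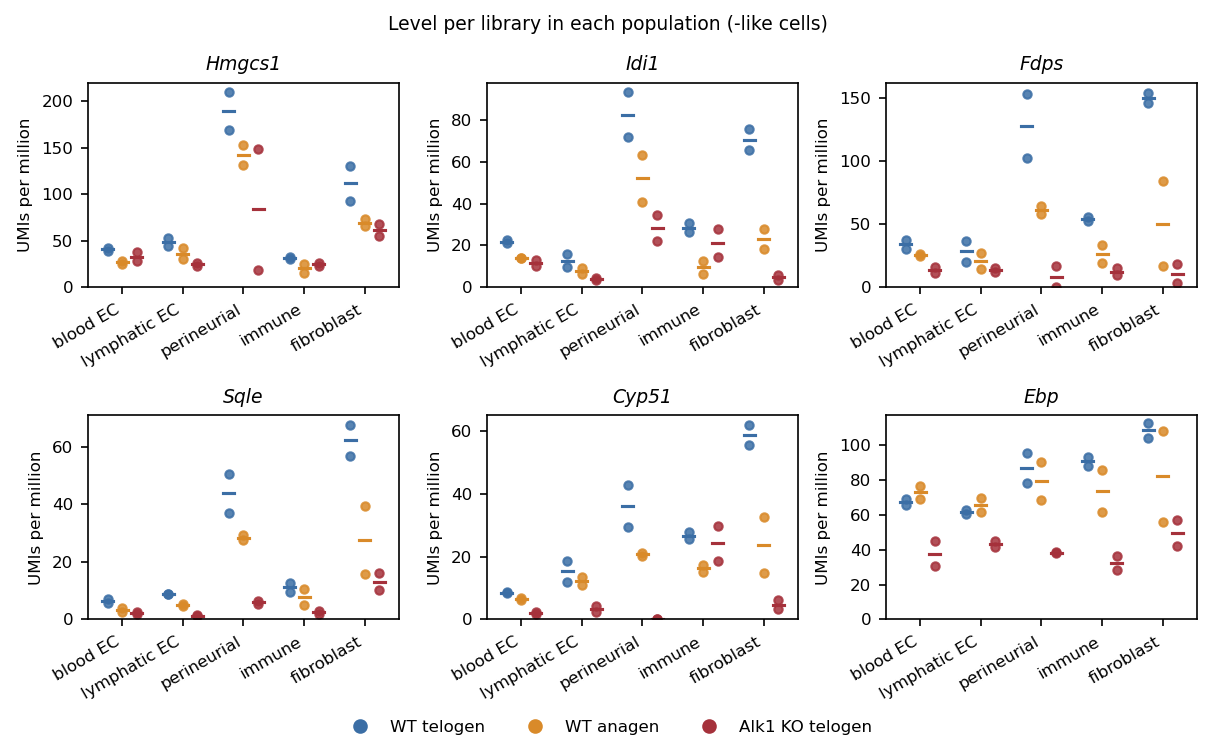
Levels of 6 members of the cholesterol steps (CPM, 1 point per library, bars at the group means) in 5 populations. For *Fdps*, *Cyp51* and *Ebp* in the blood EC, lymphatic EC and perineurial columns, both Alk1 KO points lie below all 4 WT points, except *Fdps* in lymphatic EC-like cells, where Alk1 KO (12.1 and 15.3) overlaps anagen (14.7 and 27.1).

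Across the 4 populations, 18 members were lower in Alk1 KO in at least 1, and 5 in at least 3. *Fdps* (chr3:89093588-89101967) and *Ebp* (chrX:8185329-8193512) were lower in all 4, and *Idi1*, *Sqle* and *Cyp51* in 3. The 4 comparisons use the same 4 libraries, so these counts are not independent of each other. Of all genes tested, 17.8%, 13.2%, 11.3% and 4.33% were called lower in blood EC-like, lymphatic EC-like, perineurial-like and immune-like cells. How many of all genes were lower in several populations at once was not counted, so the shared counts have no background. *Ebp* and *Nsdhl* lie on the X chromosome, and *Ebp* read 69.0 in telogen S1 and 65.5 in telogen S2 of blood EC-like cells, whose *Xist* differed. *Scd1* and *Scd2* were each lower in perineurial-like cells and higher in another population. Both Alk1 KO libraries lay below all 4 WT libraries for 9 of 30 members in blood EC-like cells (23.2% of genes), 11 of 26 in lymphatic EC-like (15.8%), 15 of 30 in perineurial-like (24.9%) and 6 of 31 in immune-like cells (13.8%). Fibroblast-like cells, with 36 and 60 cells in Alk1 KO, had 17 of 29 members lower and 0 higher (21.5% and 17.3% of genes), including *Scd2*, from 172 and 162 to 32.4 and 24.4 (-2.94 ± 0.28), and *Idi1*, from 75.6 and 65.5 to 3.24 and 6.09 (-4.15 ± 0.43). With telogen S1 as the sole control, 12 of 24 were lower and 0 higher (16.5% and 9.91%). Fibroblast markers summed to 43645 and 36496 CPM in WT telogen and to 23235 and 15517 in Alk1 KO. Without the Harmony correction the cluster led by *Sfrp4*, *Mmp3* and *Dpt* held 123 and 174 telogen, 57 and 60 anagen and 0 Alk1 KO cells, and with the fibroblast-like clusters of that setting 20 of 30 members were lower and 0 higher (18.3% and 15.3%). Adipocyte markers summed to 6264 CPM in KO S2 of that population to 16.2 in KO S1 and to at most 3.77 in the WT libraries, and KO S2 held the highest *Fasn* (67.0) and *Acaca* (50.8) there. In pericyte-like cells 0 of 19 members were called in either direction (edgeR, 3.1% and 3.47% of genes higher and lower), with 4 members at an unadjusted p under 0.05. Of all 7991 genes tested there, 2209 had such a p. Against telogen S1 alone the member median was -0.72 in pericyte-like cells (10 members tested) and 0.00 in macrophage-like cells (6 tested).

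The difference of the Alk1 KO effect between populations was tested directly, with the library as a block. Perineurial-like cells differed from blood EC-like cells in 5 of 31 members, all with a more negative change, where 5.51% of genes were called lower and 2.61% higher: *Scd1* by -2.78 ± 0.29 (adjusted p = 6.07e-10), *Fdps* by -3.22 ± 0.72, *Stard4* by -2.10 ± 0.54, *Hmgcs1* by -1.37 ± 0.35 and *Scd2* by -1.17 ± 0.22. The median of all genes in that contrast was -0.30. Lymphatic EC-like cells differed in 3 of 31, all lower (10.1% of genes lower, 10.3% higher), *Insig1* by -1.72 ± 0.29 (adjusted p = 0.000467), *Fasn* by -1.23 ± 0.42 and *Hmgcs1* by -0.70 ± 0.21. The lymphatic count was thus near the share of all genes. With DESeq2 these counts were 2 and 0, and against telogen S1 alone 2 (*Fdps* and *Scd1*, 1.58% of genes lower) and 2 (*Insig1* and *Hmgcs1*, 6% lower). Immune-like cells differed in 0 (edgeR, 1.37% of genes higher and 0.874% lower, 4 members at an unadjusted p under 0.05, 0 with DESeq2, and 0 against telogen S1 alone). Of all 12581 genes in the immune-like contrast, 2202 had an unadjusted p under 0.05. For *Cyp51*, *Idi1*, *Sqle* and *Ebp* no difference between populations was called.

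**Figure D5:**
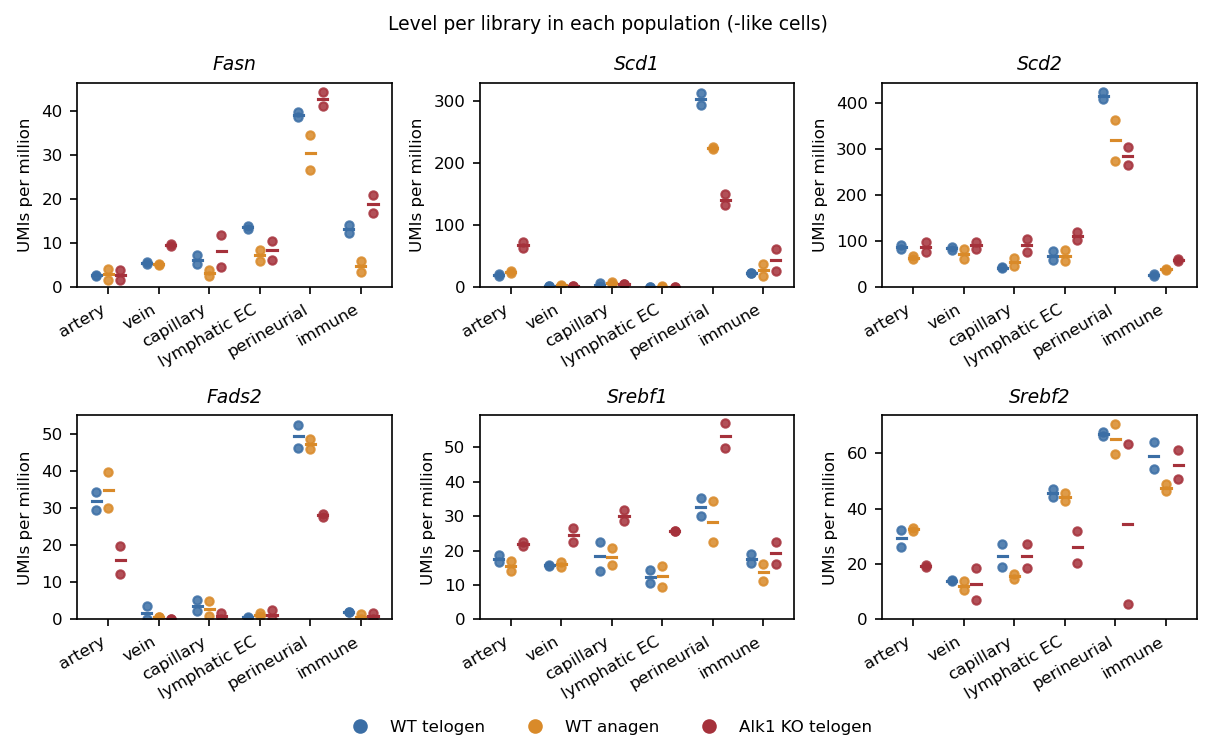
Levels of *Fasn*, *Scd1*, *Scd2*, *Fads2*, *Srebf1* and *Srebf2* (CPM, 1 point per library, bars at the group means) in 6 populations. *Scd1* is highest in perineurial-like cells, far lower in artery-like and immune-like cells, and near 0 in lymphatic EC-like cells. For *Scd1*, Alk1 KO lies above WT in artery-like cells and below in perineurial-like cells. *Srebf1* of Alk1 KO is above every WT library in all but the immune column.

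Between hair cycle stages, 0 members were called in any of the 4 populations (edgeR, anagen against telogen). All genes called made up 0% of those tested in blood EC-like and immune-like cells, 1.07% higher and 0.347% lower in lymphatic EC-like cells, and 0.519% higher and 0.0627% lower in perineurial-like cells. At an unadjusted p under 0.05 there were 6 of 31 members in blood EC-like, 2 of 26 in lymphatic EC-like, 11 of 31 in perineurial-like and 6 of 31 in immune-like cells. Of all genes tested, 1982 of 12767, 2195 of 10376, 1607 of 11171 and 1848 of 11633 had such a p in these populations, in that order. DESeq2 called 1 in perineurial-like cells and 0 in the other 3. The member medians were -0.17, -0.25, -0.35 and -0.42 on the log2 scale in blood EC-like, lymphatic EC-like, perineurial-like and immune-like cells, against 0.00, -0.00, -0.01 and -0.01 over all genes. In perineurial-like cells 28 of 31 members had a negative value, and 22 had both anagen libraries below both telogen libraries, where 30.9% of all genes tested had.

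The most negative values at anagen in perineurial-like cells were those of *Fdps* (103 and 153 against 64.2 and 58.1 CPM, -1.0 ± 0.20, adjusted p = 0.0729), *Mvd* (-0.97 ± 0.34) and *Elovl6* (20.3 and 16.5 against 8.87 and 9.26, -0.93 ± 0.25). In blood EC-like cells they were *Sqle* (-0.83 ± 0.33), *Fads1* (-0.75 ± 0.18) and *Msmo1* (-0.56 ± 0.19), and the most positive was *Scd1* (0.44 ± 0.19). *Idi1* (-1.56 ± 0.32) and *Elovl6* (-1.33 ± 0.62) had the most negative values in immune-like cells, and *Tm7sf2* (-1.04 ± 0.51), *Mvk* (-0.98 ± 0.32) and *Fasn* (-0.83 ± 0.29) in lymphatic EC-like cells. None of these passed the threshold. All 29 members tested in fibroblast-like cells had a negative value, with a median of -0.65, and 0 were called (edgeR, 14 at an unadjusted p under 0.05, 0.307% and 0.011% of genes called higher and lower). Of all 9112 genes tested there, 1176 had an unadjusted p under 0.05. The libraries of anagen were unequal there, with *Fdps* at 16.5 and 84.3. In macrophage-like cells 1 member was called, *Fdps*, from 33.5 and 33.7 to 4.35 and 18.4 (-2.14 ± 0.49, adjusted p = 0.0455, with 0.98% of genes called lower). The telogen libraries also differed in *Xist*, and both anagen libraries matched telogen S2. The stage effect in lymphatic EC-like, perineurial-like and immune-like cells differed from that in blood EC-like cells for 0 members (edgeR, 1, 3 and 3 at an unadjusted p under 0.05, and 0 with DESeq2), where 0.0914%, 0.549% and 1.18% of genes were called higher and 0.0166%, 0.0484% and 0.17% lower. Genes at that unadjusted p numbered 949 of 12030, 1246 of 12391 and 1940 of 13537. In artery-like, vein-like and capillary-like cells 0 members were called at anagen (edgeR, 3, 4 and 6 at an unadjusted p under 0.05), where 0.41%, 0.581% and 0.0899% of genes were higher and 0.166%, 0.161% and 0.00899% lower. Genes at that unadjusted p numbered 1592 of 10240, 1250 of 9298 and 1424 of 11125. In proliferating EC-like, pericyte-like and monocyte- or dendritic-like cells 0 members were called too (edgeR, 2, 1 and 6 at an unadjusted p under 0.05), with 0% of genes higher and 0.0162%, 0.0456% and 0% lower. There 511 of 6185, 484 of 8780 and 1284 of 9834 genes had such a p. A fit against telogen S2 alone was made in the 4 main populations only, and not in macrophage-like or the other smaller populations. The member medians were then -0.12, -0.05, -0.48 and -0.25 in blood EC-like, lymphatic EC-like, perineurial-like and immune-like cells.

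A list of 30 further genes of sterol and fatty acid handling was also chosen with earlier results of these data known. Of these, 28 were tested in blood EC-like cells, where 5 were higher and 7 lower in Alk1 KO (15.2% and 17.8% of all genes). In lymphatic EC-like cells 6 of 26 were higher and 4 lower (11.9% and 13.2%), in perineurial-like cells 3 of 24 and 3 (9.94% and 11.3%), and in immune-like cells 1 of 24 and 1 (2.2% and 4.33%). Most of these counts lay near the shares of all genes. Between stages 1 was called in lymphatic EC-like cells, lower at anagen, and 0 in the other 3 populations (edgeR).

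In blood EC-like cells the lower ones included *Fads3*, *Elovl1*, *Hsd17b12* and *Tecr*, and the higher ones were *Mylip*, *Abca1*, *Abcg1*, *Nr1h2* and *Acacb*. In lymphatic EC-like cells *Tecr* and *Hacd3* were among the lower ones and *Mylip*, *Abca1*, *Abcg1*, *Nr1h2*, *Nr1h3* and *Lpin1* were higher. In perineurial-like cells *Tmem97*, *Hsd17b12* and *Tecr* were lower and *Abca1*, *Nr1h2* and *Mlxipl* higher, and in immune-like cells *Hsd17b12* was lower and *Mylip* higher. The list thus moved in both directions in each population.

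The 3 genes with values here were picked after those had been seen, all from the higher ones. *Mylip*, a ubiquitin ligase, and *Abca1* and *Abcg1*, which export cholesterol, are raised by LXRs. *Mylip* read 129 and 118 CPM in blood EC-like cells of WT telogen and 424 and 423 in Alk1 KO (1.72 ± 0.13, adjusted p = 4.62e-05). *Abca1* read 167 and 187 against 298 and 298 there (0.69 ± 0.13), 111 and 125 against 257 and 236 in lymphatic EC-like cells (1.0 ± 0.12) and 54.2 and 65.0 against 272 and 276 in perineurial-like cells (2.10 ± 0.20, adjusted p = 3.00e-05). *Abcg1* rose by 0.75 ± 0.13 in blood and 1.08 ± 0.19 in lymphatic EC-like cells.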

How the data were processed

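The authors aligned and counted the Chromium 3′ v3 libraries with Cell Ranger 6.0.1 on mm10, and the deposited matrices hold raw UMI counts per gene and barcode, 1 matrix per library. The submitters' notes also name Seurat 4.0. Cells with 200 to 5000 genes and under 10% mitochondrial UMIs were kept. They were clustered with scanpy 1.11.5 (3000 variable genes, 30 components, a Harmony correction between libraries, Leiden resolution 0.6) and named from marker lists, where at least 3 markers had to pass. Doublets were kept, and an alternative removed those with high Scrublet scores (9 to 255 cells per library).

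UMIs were summed per library and population. edgeR 4.0.16 (R 4.3.3) was fitted with TMM scaling, filterByExpr and the quasi-likelihood test, over all genes, with Benjamini-Hochberg adjustment. A call needed an adjusted p under 0.05 and over 1.3-fold. Populations, and the Alk1 KO effect between populations, were compared with the library as a block. DESeq2 1.42.0 was an alternative. Scripts were tested on simulated data.

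The members and gene lists were chosen with earlier results of these data known. Per-library values are given for *Srebf1*, *Srebf2*, *Insig1*, members called in a comparison (where over 10, the 5 of lowest adjusted p in each direction) and the 3 largest rises and falls. S1 and S2 did not pair libraries across groups. Values of some further genes of the list are not reported here.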

Additional observations from a re-analysis of the deposited data

Results flagged for a closer look

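The Alk1 KO effect on 8 member and population pairs differed from that in blood EC-like cells by a test of the difference itself (edgeR, library as a block, n = 2 libraries per group). In perineurial-like cells against blood EC-like cells the differences on the log2 scale were -2.78 for *Scd1* (adjusted p = 6.07e-10), -3.22 for *Fdps* (adjusted p = 0.00156), -2.10 for *Stard4* (adjusted p = 0.00657), -1.37 for *Hmgcs1* (adjusted p = 0.00581) and -1.17 for *Scd2* (adjusted p = 0.000134). In lymphatic EC-like cells they were -1.72 for *Insig1* (adjusted p = 0.000467), -0.70 for *Hmgcs1* (adjusted p = 0.0273) and -1.23 for *Fasn* (adjusted p = 0.0452). These were 5 and 3 of 31 members, all with a more negative change, where 5.51% of all genes were called lower for perineurial-like and 10.1% for lymphatic EC-like cells. The lymphatic share was near that of all genes, and 0 of those 3 were called with DESeq2. *Scd1* in perineurial-like cells was the 1 difference called under every alternative tried.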

How the results depend on the processing

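No value changed its direction among the called results under any alternative, and of the values of single genes 2402 kept their side of the threshold, 165 lost the call and 21 gained one. With DESeq2 the members called in Alk1 KO were 7 in blood EC-like cells, and 1 was called between stages in perineurial-like cells, while the differences of the Alk1 KO effect fell to 0 for lymphatic EC-like and 2 for perineurial-like cells. Thinning each cell to 1500 UMIs, which leaves fewer UMIs, gave 2 calls in blood EC-like, 4 in lymphatic EC-like, 7 in perineurial-like and 0 in immune-like cells of Alk1 KO, 9 for lymphatic EC-like and 9 for immune-like against blood EC-like cells, and 1 and 2 for the differences in lymphatic EC-like and perineurial-like cells. Without the filter on low counts there were 8 calls in immune-like cells of Alk1 KO, 4 and 2 between stages in perineurial-like and immune-like cells, and 2 for the stage difference in perineurial-like cells. Without likely doublets 1 was called in immune-like cells of Alk1 KO, and without the artery-like cluster led by *Pi16*, an alternative chosen after seeing the data, 7 in blood EC-like cells. In the smaller populations, whose alternatives were also chosen after seeing the data, as were those of the differences between populations, vein-like cells of Alk1 KO had 1 call with clusters made without the correction between libraries. Leaving out telogen S2 gave 6, 1, 4, 0, 12 and 0 calls in artery-like, vein-like, capillary-like, pericyte-like, fibroblast-like and macrophage-like cells. Where no construction shows it, the cause was not tested. The counts in this section are of members alone and are not set beside the genes called in the same fit. A shift in them therefore cannot be told here from a shift over all genes. With the replicate number as a block 1 member was called between stages in perineurial-like cells, and in Alk1 KO 14, 12, 11 and 2 in blood EC-like, lymphatic EC-like, perineurial-like and immune-like cells. Deviations of same-numbered libraries correlated between -0.0714 and 0.0215. Leaving out 1 library at a time gave 8 to 14, 7 to 13, 5 to 12 and 0 to 5 calls in Alk1 KO for those populations, in that order, and 0 to 1, 0 to 1, 0 to 2 and 0 to 2 between stages. It gave 14 to 16, 24 to 27 and 13 to 17 for lymphatic EC-like, perineurial-like and immune-like against blood EC-like cells. For the differences of the Alk1 KO effect the ranges were 2 to 3, 2 to 5 and 0 to 2, and of the stage effect 0 to 0, 0 to 1 and 0 to 4. The lowest count came without telogen S1 in lymphatic EC-like cells (7), without telogen S2 in perineurial-like cells (5) and without either in immune-like cells (0), and without either Alk1 KO library immune-like cells had 5. The 81 and 55 perineurial-like and 67 and 133 immune-like cells of Alk1 KO limit depth there.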
